A study of Mus musculus with 20 samples.

Results

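The genes described here are 10 regulators of the BCL2 family, *Bcl2*, *Bcl2l1*, *Mcl1*, *Bax*, *Bak1*, *Bbc3*, *Pmaip1*, *Bcl2l11*, *Bid* and *Bad*, measured in mouse liver after repeated oral exposure to benzo(a)pyrene (BaP), a mutagenic polycyclic hydrocarbon of combustion products. Members were found by matching the RefSeq accession of each array probe to these symbols or their older synonyms. All 10 had a probe, and none was matched through a synonym. They were covered by 16 of 41174 probes, of which 15 passed the presence limit (a second *Bcl2l11* probe did not), so that 10 of 12986 genes with a present probe were members. A member with several probes is represented by its brightest present probe in the liver channel.

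RNA came from the livers of 20 male Muta™Mouse animals aged 25 weeks (transgenic mouse strain 40.6 in the labels), each carrying a *lacZ* reporter transgene used to count mutations. The control animals (replicates 1 to 5) received olive oil alone. The exposed animals received BaP in olive oil, with replicates 6 to 10 at the lowest dose (25 mg/kg/day), 11 to 15 at the middle dose (50 mg/kg/day) and 16 to 20 at the highest dose (75 mg/kg/day). Dosing was by oral gavage on 28 days, and livers were collected 3 days after the final dose. Each liver RNA was labeled with Cyanine 5 and hybridized on 1 array with a Cyanine 3-labeled universal reference pooled from 11 mouse cell lines, so that a value is the log2 ratio of liver over reference. The series description gives 24 mg/kg for the lowest dose, and 25 mg/kg, as the sample labels have it, was used. Liver is given as the tissue in 1 label field and lungs in another. The 4 hepatocyte markers measured (*Alb*, *Apoa1*, *Ttr* and *Cyp2e1*) averaged log2 ratios between 4.20 and 5.55 over the arrays, with a summed liver intensity of 411841 to 953574. Of 4 lung epithelium markers, *Sftpc* and *Sftpb* did not pass the presence limit, while *Sftpa1* and *Scgb1a1* passed it with a summed liver intensity of 151 to 242.

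BCL2 family proteins decide whether the outer mitochondrial membrane stays closed. The guardians BCL2, BCL-XL (from *Bcl2l1*) and MCL1 hold the effectors BAX and BAK in check, and the BH3-only proteins bind the guardians or activate the effectors when a cell is damaged. Once the effectors open the membrane, cytochrome c is released, APAF1 assembles the apoptosome and caspases are cleaved. *Bax*, *Bbc3* (PUMA) and *Pmaip1* (NOXA) are known transcriptional targets of p53, the factor activated by DNA damage, whereas BIM (from *Bcl2l11*), BID and BAD are controlled to a large extent by other transcription factors, by cleavage or by phosphorylation. Hepatocytes depend strongly on MCL1 and BCL-XL for survival.

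The short sequences shown here bear on p53 and the family, and they were taken from RefSeq tables of GRCm38.p6. The letters of the p53 consensus decamer, the repeat unit of a p53 response element, were searched on both strands in windows from 250 bases before to 50 bases after annotated start sites. Of the members, 9 had a window in the table (15 windows in all), and the decamer was found in 1 of the 15 (6.67%), against 8.36% of all 32851 windows. Counted by gene, it was found in 1 of the 9 members (11.1%), against 9.55% of all 27025 genes with a window. A single match cannot tell whether the letters are more or less frequent in the members. The match lay in the *Bax* window. It began at position -201 relative to the *Bax* start site on the minus strand, at chr7:45467080-45467109 with 10 flanking bases on each side, and the capitals below mark the matching letters.
Bax promoter: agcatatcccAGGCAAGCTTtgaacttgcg
The match is a description of letters and not a measured binding site. The second sequence is miR-34a, a p53-induced microRNA with *Bcl2* among its known targets. It lies at chr4:150068473-150068494 on the plus strand, and the capitals mark its seed (bases 2 to 8).
mmu-miR-34a-5p: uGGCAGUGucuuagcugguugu
The microRNA was not measured on these arrays.

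The arrays were of unequal brightness. In the liver channel the share of spots well above background was 51.9 to 67.5%, with control replicate 4 at the top and the other control arrays between 51.9 and 54.3%. The 20 arrays lay on 6 slides. Slides 1 to 3 held every group, slides 4 and 5 held 25 and 75 mg/kg/day only, and slide 6 held controls and 50 mg/kg/day only. All 5 arrays of the lowest dose were at position 2 and all 5 of the highest at position 4 of their slide, with 4 of 5 controls at position 1, so dose and position cannot be told apart. Precision is limited by there being 5 arrays in a group, and the 3 doses share the same 5 control arrays.

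No member was called changed at any dose on these arrays. By other assays the paper reports changes that these calls do not show. It gives higher *Bax* and *Apaf1* RNA at the highest dose by RT-PCR, and more Bcl2 protein at every dose by Western blot. The 27346 present probes were fitted together in limma, and a call needed more than a 1.5-fold change with a p, adjusted by Benjamini-Hochberg within each dose, under 0.05. At the lowest dose 0 of 10 members were called (0% of all present probes), at the middle dose 0 of 10 (0%), and at the highest dose 0 of 10, against 37 of the present probes (0.135%). By limma, an unadjusted p under 0.05 was reached by 2 members at the lowest dose (*Mcl1* and *Pmaip1*, against 7.81% of all probes), by 0 at the middle dose (6.7%) and by 1 at the highest (*Mcl1*, against 11.2%). In none of the 10 members did the 5 exposed arrays lie wholly on 1 side of the 5 control arrays, at the lowest (1.21% of all probes), middle (0.815%) or highest dose (1.52%). The intervals bound the change in the array log2 ratio by this fit. They do not allow for slide position, which goes with dose, or for the offset added in background correction, which weighs most on dim probes. For 10 of 10 members, each by its brightest probe, the 95% interval lay within a 1.5-fold change in both directions at the middle dose, and for 8 of 10 at each of the others. The exceptions were *Bbc3* and *Pmaip1* on the lower side at the lowest dose and *Bax* and *Mcl1* on the upper side at the highest dose. With slide as a block the counts were 6, 10 and 8 of 10 in order of dose, since at the lowest dose *Mcl1* (upper bound 0.72) and *Bax* (lower bound -0.60) then passed a 1.5-fold change as well.

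**Figure D1:**
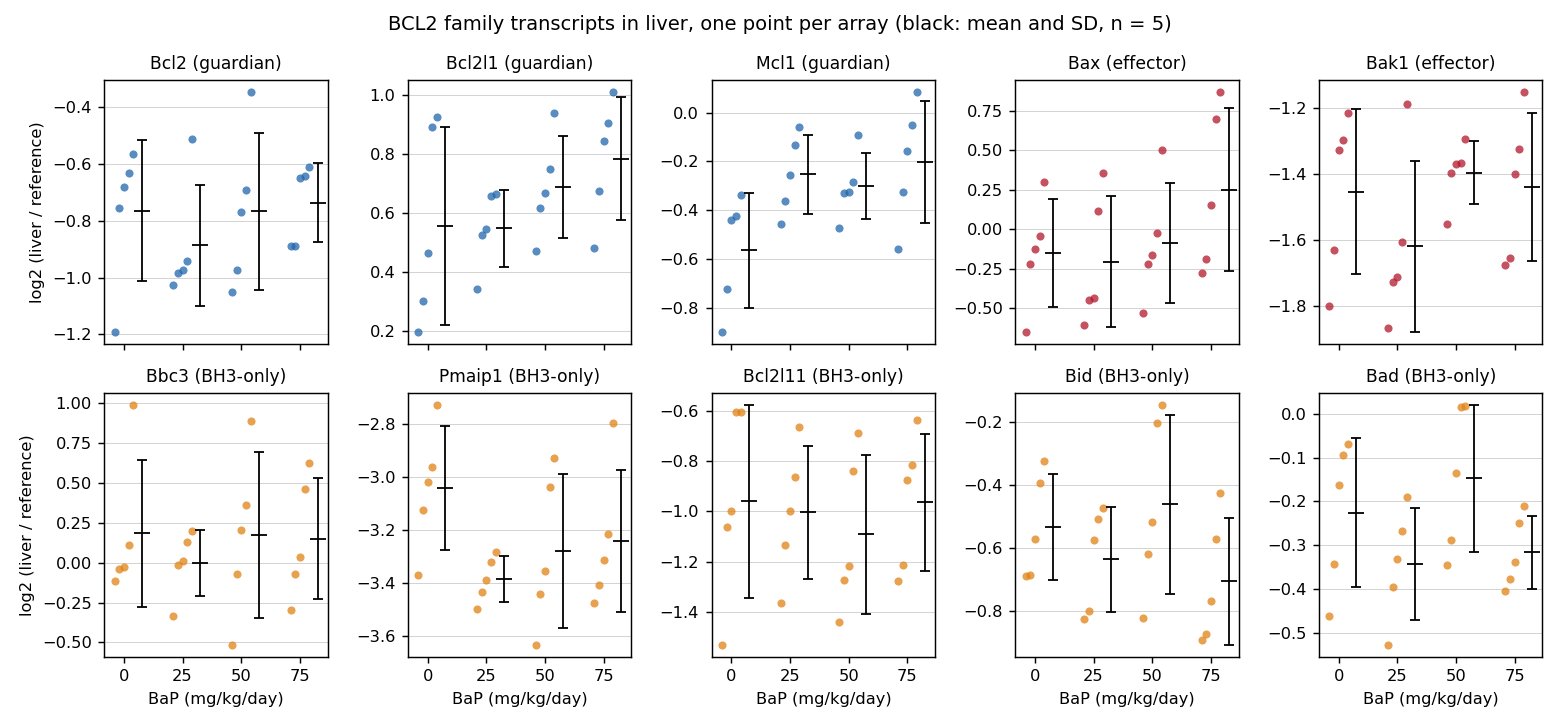
Log2 ratio of liver over reference (vertical axis, a separate range for each gene) against BaP dose in mg/kg/day for the 10 members, 1 point per array, with black bars for the mean and SD of the 5 arrays of a group. The groups overlap in every panel, and *Mcl1* has 4 of 5 arrays above all controls at 75 mg/kg/day.

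Of the 3 guardians, *Mcl1*, a short-lived protein that binds BAK and several BH3-only proteins, had the smallest p among the brightest probes of the members. Its log2 ratios were -0.42, -0.34, -0.44, -0.72 and -0.90 in controls. They were -0.36, -0.06, -0.13, -0.26 and -0.46 at the lowest dose, and -0.33, -0.28, -0.33, -0.09 and -0.47 at the middle dose. The highest dose gave -0.05, -0.33, 0.09, -0.56 and -0.16. The exposed arrays were mostly the higher ones, with 3, 4 and 4 of 5 arrays above all controls in order of dose, but the lowest array of each dose fell among the controls. The log2 change was 0.31 at the lowest and 0.26 at the middle dose. At the highest dose it was 0.36 (SE 0.13, 95% interval 0.10 to 0.63, adjusted p = 0.299 by limma), a fold change of 1.29. A second, dimmer *Mcl1* probe gave 0.17, 0.18 and 0.31 at the 3 doses, with an SE of 0.19 each. With slide as a block the change of the brighter probe at 75 mg/kg/day was 0.46 (adjusted p = 0.206 by limma), and on slides 1, 2 and 3 the 75 mg/kg/day array exceeded the control by 0.40, 0.98 and 0.37.

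*Bcl2l1*, whose long product BCL-XL binds BAX and BAK, was read by a probe with 10 spots on each array. Its log2 ratios in controls were 0.20, 0.92, 0.89, 0.47 and 0.30, a range that took in nearly all exposed values. The highest dose gave 0.67, 0.91, 0.48, 1.01 and 0.84, with 1 array above all controls. The means were 0.55, 0.69 and 0.78 in order of dose, against 0.56 ± 0.33 (SD, n = 5) in controls. The log2 change at the highest dose was 0.23 (SE 0.14, 95% interval -0.06 to 0.52, adjusted p = 0.558 by limma). It was 0.14 without control replicate 1 and 0.32 without control replicate 2. Within slides the picture was tighter, since slide took 55.3% of the variance of this probe. On slides 1, 2 and 3 the 75 mg/kg/day array was higher than the control by 0.44, 0.18 and 0.47, and with slide as a block the change was 0.31 (SE 0.11, adjusted p = 0.245 by limma). Both dimmer *Bcl2l1* probes, the fainter of them read well above background on just 9 of 20 arrays, gave 0.16 and 0.15 at 75 mg/kg/day, and their largest changes, 0.33 and 0.30, were at 50 mg/kg/day. The first of these, from the fainter probe, had a lower unadjusted p than *Mcl1* by limma. Its interval was 0.09 to 0.56, with an adjusted p of 0.676 by limma. The interval of the second was -0.02 to 0.63 (adjusted p = 0.753 by limma).

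*Bcl2*, the founding guardian, stayed near its control level. Control log2 ratios ranged from -1.19 to -0.56 with a mean of -0.76 ± 0.25 (SD, n = 5), and the means of the exposed groups were -0.89, -0.77 and -0.74 in order of dose. The changes were -0.12, -0.0031 and 0.03, and at the highest dose the interval ran from -0.26 to 0.32. A second *Bcl2* probe, made to another transcript accession and printed in 10 spots per array, gave -0.07, -0.05 and 0.04. Its ratio to the reference was lower (control mean -1.92), so the level of *Bcl2* relative to the cell line pool differs with the probe, while the dose contrasts did not differ beyond their SEs of 0.14 and 0.17.

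Of the effectors, *Bax* had the largest change of all members at the highest dose and also the widest spread. Its log2 ratios were -0.65, -0.13, 0.30, -0.22 and -0.04 in controls and 0.12, 0.36, -0.61, -0.45 and -0.44 at the lowest dose. They were -0.02, 0.51, -0.22, -0.53 and -0.16 at the middle dose and -0.19, 0.15, -0.28, 0.70 and 0.87 at the highest. Only the last 2 arrays of the highest dose lay above all controls, and the other 3 fell inside the control range. The log2 change was -0.06 and 0.06 at the lower doses and 0.40 at the highest dose (SE 0.24, 95% interval -0.11 to 0.91, adjusted p = 0.552 by limma). On the linear scale this is 1.32-fold with an interval from 0.929 to 1.87. It was 0.24 without replicate 20 and 0.53 without replicate 18, both of the highest dose. The 10 *Bax* spots of an array had a median SD of 0.04, while the SD between arrays of a group was 0.42.

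*Bax* varied with the slide. Slide took 61.8% of its variance and dose group 18.3%, and the slide means were -0.17, -0.37, -0.33, 0.49, 0.53 and 0.11 on slides 1 to 6. Slides 4 and 5, which held no control array, carried both of the high 75 mg/kg/day values. With slide as a block the change at the highest dose was 0.23 (SE 0.18, adjusted p = 0.621 by limma), and on slides 1, 2 and 3 the 75 mg/kg/day array differed from the control by 0.37, -0.24 and 0.46.

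*Bak1*, the other effector, had a smaller spread, with an SD over all arrays of 0.22 against 0.43 for *Bax*. Slide took 54.8% of its variance and dose group 16.1%. Its brighter probe had a control mean of -1.45 ± 0.25 (SD, n = 5) and changed by -0.17, 0.06 and 0.01 in order of dose (interval at the highest dose -0.27 to 0.30). The dimmer probe read above the reference (control mean 0.58), in the opposite direction from the brighter one, and changed by -0.09, 0.05 and 0.08. The dose contrasts of both probes were within their SEs of 0.14 of each other, whereas the level against the reference is uncertain.

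**Figure D2:**
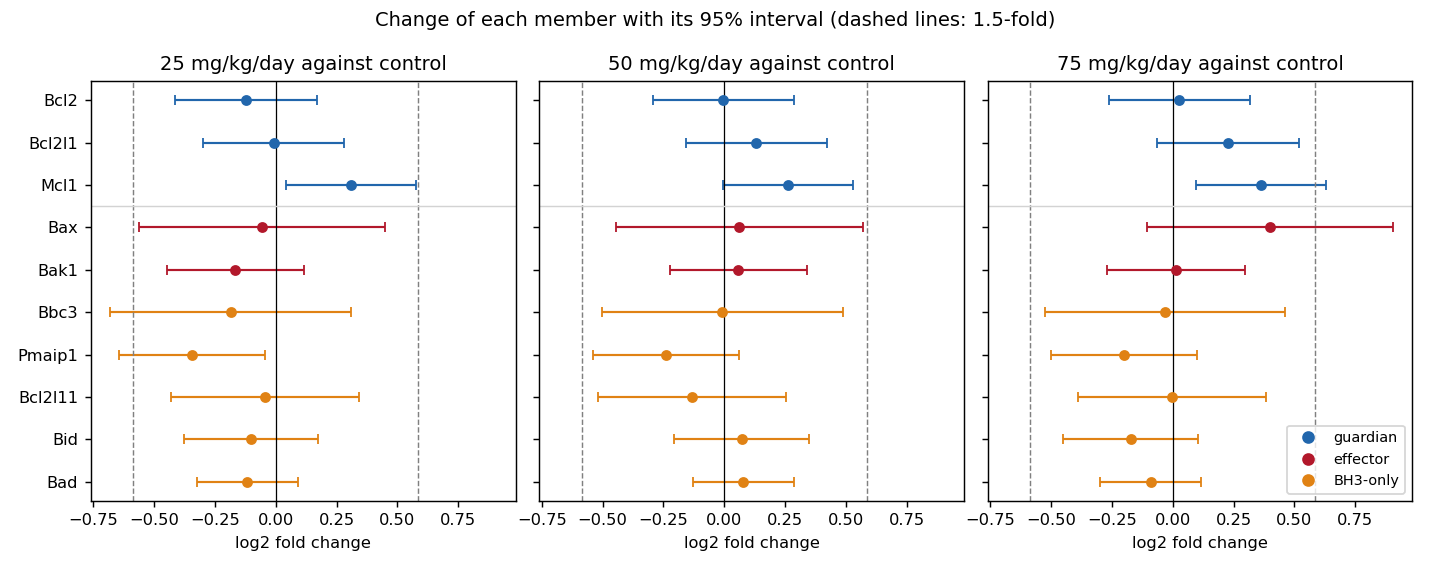
Log2 fold change against control (horizontal axis) of each member by its brightest probe only, a panel for each dose, with its 95% interval from limma and dashed lines at a 1.5-fold change. Intervals of 10 of 10 members lie inside the dashed lines at the middle dose, and at the highest those of *Bax* and *Mcl1* cross the upper line.

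The 5 BH3-only members moved little, and the changes of the 2 that are p53 targets, *Pmaip1* and *Bbc3*, were below 0 at every dose, although other settings turned the sign of both. *Pmaip1*, which neutralizes MCL1, was far below the reference. Its log2 ratios were -3.02, -3.37, -3.12, -2.96 and -2.73 in controls and -3.39, -3.32, -3.43, -3.28 and -3.50 at 25 mg/kg/day, where 3 of 5 arrays were below all controls. The changes were -0.35, -0.24 and -0.20 in order of dose, and the interval of the first was -0.65 to -0.04 (adjusted p = 0.636 by limma). The liver channel taken alone, without the reference, gave 0.05, 0.07 and 0.12, and the software's processed signals gave 0.13 at the highest dose, so the direction of *Pmaip1* depends on the processing. In normalized ratios, the *Pmaip1* signal in the reference was about 8.23 times that in liver in controls. It was 10.5, 9.71 and 9.46 times in order of dose. The offset added in background correction enters these ratios.

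*Bbc3*, whose product PUMA binds all guardians, changed by -0.19, -0.0086 and -0.03. Its control values were 0.99, -0.04, -0.03, 0.11 and -0.12, and replicate 1 stood far above the other 4. The values at the highest dose were -0.07, 0.46, 0.03, 0.63 and -0.30. Without control replicate 1 the changes were 0.02, 0.19 and 0.17 at the 3 doses, which turns their direction, with a lowest adjusted p of 0.786, 0.831 and 0.827 by limma over all arrays left out in turn.

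*Bcl2l11*, which encodes the activator BIM, changed by -0.04, -0.13 and -0.0034. Its control values ran from -1.53 to -0.60, wider than those of any dose. *Bid*, the link from death receptors to mitochondria after caspase 8 cleavage, changed by -0.10, 0.07 and -0.17, with 3 of 5 arrays below all controls at 75 mg/kg/day and an adjusted p of 0.659 by limma there. *Bad*, a sensitizer held inactive by survival kinases, changed by -0.12, 0.08 and -0.09. Its probe was dim, well above background on 9 of 20 arrays, and its small SD of 0.08 to 0.17 within groups was measured close to that floor.

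The pro-apoptotic and anti-apoptotic members are set side by side here as a description, and the difference between them was not tested. At the highest dose 3 of 3 anti-apoptotic members were above 0 with a median log2 change of 0.23, and 2 of 7 pro-apoptotic members were above 0 with a median of -0.03, where all present probes had a median of 0.0025. The count of 3 was lost with slide as a block (*Bcl2* -0.0088). The anti-apoptotic median was 0.14 without control replicate 1 and 0.13 in the liver channel alone, and the pro-apoptotic median was -0.11 without replicate 19. The lowest dose had 0 of 7 pro-apoptotic members above 0 (median -0.12) and 1 of 3 anti-apoptotic members (median -0.0083). For the middle dose the counts were 4 of 7 and 2 of 3 with medians of 0.06 and 0.13. As a description of each array, the mean of the 7 pro-apoptotic minus the mean of the 3 anti-apoptotic members, each relative to its control mean, was 0 ± 0.12 (SD, n = 5) in controls and ranged there from -0.13 to 0.19. It was -0.21 ± 0.06, -0.15 ± 0.10 and -0.22 ± 0.09 in order of dose, and the lowest dose, from -0.27 to -0.137, lay just below the lowest control array (-0.132). The middle dose (-0.23 to -0.02) and the highest (-0.32 to -0.10) overlapped the controls. This difference of means was not computed under the other settings. *Pmaip1*, the pro-apoptotic member with the largest fall at the lowest dose (-0.35), turned to 0.05 there in the liver channel alone. The anti-apoptotic mean was 0.21 ± 0.04 at 75 mg/kg/day and the pro-apoptotic mean -0.01 ± 0.07.

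A fit with dose as a number gave 0 of 10 members with an adjusted p under 0.05 by limma, against 43 probes (0.157%), and 1 with an unadjusted p under 0.05, against 8.58% of all probes. That was *Mcl1*, with a slope of 0.10 (SE 0.04) in log2 ratio per 25 mg/kg/day (adjusted p = 0.472 by limma). The slopes of *Bax* and *Bcl2l1* were 0.13 (SE 0.08) and 0.08 (SE 0.04), with adjusted p of 0.653 and 0.612 by limma. With slide as a block the slope of *Bcl2l1* was 0.10 (SE 0.03, adjusted p = 0.227 by limma).

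Because 25 and 75 mg/kg/day were hybridized side by side on slides 1 to 5, they can be compared within slides, a comparison chosen after the values were seen. *Bax* was higher at 75 than at 25 mg/kg/day on 5 of 5 slides, by 0.61, 0.33, 0.25, 0.76 and 0.34. The mean difference was 0.46 and the exact two-sided permutation p over the signs of the 5 slides was 0.0625, the smallest that 5 pairs can give. Any 5 differences of the same sign give this p, so it adds nothing to the count of slides. For the other members the same permutation p ran from 0.125 (*Bcl2l1*) to 0.875 (*Bcl2l11*). A same direction on all 5 slides was found in 7.82% of all present probes. In limma with slide as a block the adjusted p of *Bax* was 0.973. By this fit 0 of 10 members were called, against 21 probes (0.0768%), and 2 had an unadjusted p under 0.05 (3.87% of all probes), *Bax* and *Bcl2l1*. *Bcl2l1* was higher on 4 of 5 slides, with differences of 0.56, -0.04, 0.13, 0.19 and 0.34, a mean of 0.24 and an adjusted p of 1.00 by limma. *Mcl1* was higher on 3 of 5 slides with a mean difference of 0.05. The position on the slide differs between these doses on every slide and cannot be told apart from dose.

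**Figure D3:**
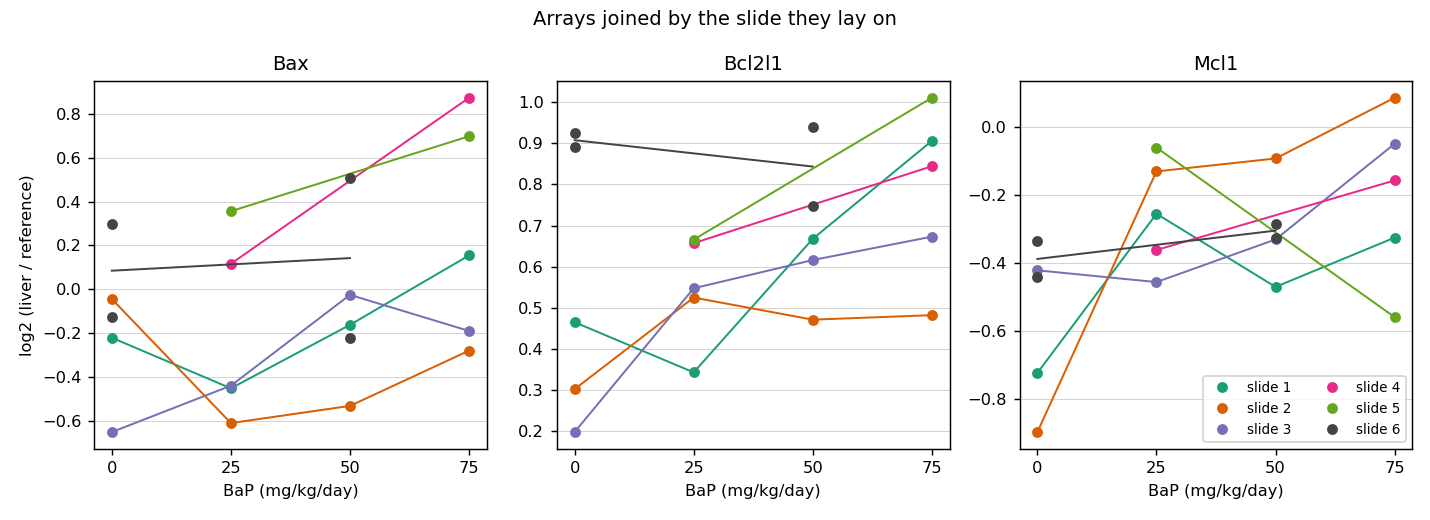
Log2 ratio of liver over reference (vertical axis, a separate range for each gene) of *Bax*, *Bcl2l1* and *Mcl1* against BaP dose in mg/kg/day, with arrays of the same slide in 1 color and joined through their mean at each dose. For *Bax* the 5 lines from 25 to 75 mg/kg/day all end higher, and slides 4 and 5 run above slides 1 to 3.

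The genes around the family were read from lists chosen with earlier results of these data known. Of 16 other BCL2 family genes, 9 passed the presence limit and 0 were called at 75 mg/kg/day. Their median log2 change was 0.03 and their range -0.82 to 0.11. The lowest, *Bmf*, a BH3-only gene named after its value was seen, changed by -0.82 with an SE of 0.42 (adjusted p = 0.480 by limma). *Bcl2l2*, a further guardian, changed by 0.03. *Hrk*, *Bcl2l10* and *Bcl2a1c* had a probe but did not pass the presence limit.

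Downstream of the mitochondrion, 21 of 21 listed genes (apoptosome, caspases, inhibitors of apoptosis and released mitochondrial proteins) were present and 0 were called at any dose. Their median log2 changes were -0.07, -0.00059 and -0.04 in order of dose, and at the highest dose 9 were above and 12 below 0. *Apaf1*, the scaffold of the apoptosome and itself a p53 target, had control values from -2.30 to -1.97 with a median of -2.24. Its values at the highest dose ran from -2.16 to -1.38 with a median of -1.90, and 3 of 5 arrays were above all controls. Its log2 change was 0.14, 0.09 and 0.31 at the 3 doses, with an SE of 0.14 and, for the last, an adjusted p of 0.419 by limma. *Casp9*, the caspase it activates, changed by -0.27 at 75 mg/kg/day (adjusted p = 0.595 by limma).

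Of 17 present p53 target genes outside the family, 4 were called higher at 75 mg/kg/day and 0 lower. At that dose 13 were above 0 and 4 below, with changes from -0.14 to 1.60. The list had a median change of 0.39, after -0.04 at the lowest and 0.08 at the middle dose, when 0 were called. *Cdkn1a*, the p21 cell cycle inhibitor, ran from -2.25 to -1.55 in controls (median -1.67) and from -1.15 to 0.27 at 75 mg/kg/day (median -0.11), without overlap. It rose by 1.60 on the log2 scale (SE 0.22, adjusted p = 0.00148 by limma). *Phlda3*, an inhibitor of AKT, rose by 0.94 (adjusted p = 0.00887 by limma), *Aen*, an apoptosis-linked nuclease, by 0.80 (adjusted p = 0.00413) and *Zmat3*, an RNA-binding p53 target, by 0.76 (adjusted p = 0.0108). For each of them the 5 arrays of that dose lay wholly above the control arrays. In a fit of only the control and the highest dose the 4 calls were lost, at adjusted p of 0.0609 (*Cdkn1a*), 0.0848 (*Aen*), 0.121 (*Phlda3*) and 0.12 (*Zmat3*) by limma, with the same log2 changes. *Btg2*, an antiproliferative gene, did not overlap between these groups either, but its change of 0.55 did not pass (adjusted p = 0.191 by limma). The 3 members with p53 target status changed by 0.40 (*Bax*), -0.03 (*Bbc3*) and -0.20 (*Pmaip1*) at that dose. The interval of *Bax* (-0.11 to 0.91) took in the list's median of 0.39 and the changes of *Aen* and *Zmat3*. That of *Bbc3* ended at 0.46 and also took in the list's median, while that of *Pmaip1* ended at 0.10. The difference between members and p53 targets was not tested.

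**Figure D4:**
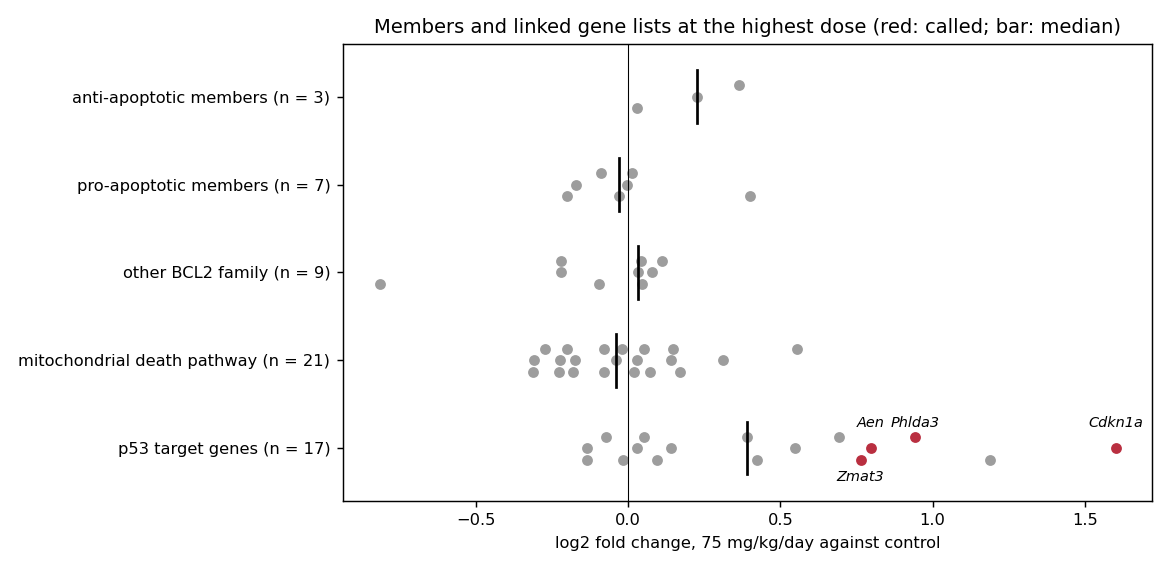
Log2 fold change at 75 mg/kg/day against control (horizontal axis), 1 point per gene, for the anti-apoptotic and pro-apoptotic members and for 3 linked gene lists, with a bar at the median of each row. Red points passed the call, which were 4 of 17 p53 target genes and none of the other rows.

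Liver RNA holds several cell types, and more cells of a type cannot be told apart from more RNA per cell. Of 5 endothelial and 5 Kupffer cell markers, all present, 1 of each list was called at 75 mg/kg/day. These were *Lyve1*, a hyaluronan receptor, at 2.23 (adjusted p = 0.0189 by limma) and *Marco*, a scavenger receptor, at 2.19 (adjusted p = 0.00148 by limma). Fitted with the control and this dose only, both calls were lost (adjusted p of 0.0848 and 0.0563 by limma), and that of *Lyve1* was also lost without control replicate 2 or without replicate 17, 18 or 20 (0.0507 to 0.0820). The *Lyve1* call was lost with the software's processed signals too (adjusted p = 0.105 by limma). The lists' median changes at that dose were 0.30 and 0.12, with 5 of 5 above 0 in each, and at the lowest dose *Pecam1* (-0.0023) and *Adgre1* (-0.05) were below 0. Of other lists, 4 of 4 hepatocyte markers (median 0.40), 3 of 5 stellate cell and fibroblast markers (*Dcn* highest, 0.80) and 2 of 3 neutrophil markers (*S100a9* highest, 1.34) were above 0 at 75 mg/kg/day. So were 2 of 3 B cell markers (median 0.02). Below 0 were 3 of 4 bile duct markers (median -0.17), 2 of 3 proliferating cell markers (median -0.0056) and 2 of 4 T cell markers (median -0.10). In these lists 0 were called. In the endothelial list *Lyve1* (2.23) weighs most in the list's mean, since the others changed by 0.22 to 0.58 at 75 mg/kg/day. The mean log2 ratio of the endothelial list ran from 2.62 to 3.22 in controls and from 3.44 to 3.96 at 75 mg/kg/day. Its summed liver intensity was 5926 to 9957 in controls, and 10026 to 15993, 7174 to 19781 and 6996 to 19378 in the exposed groups in order of dose. The brightest probes of *Mcl1* and *Bcl2l1* had their largest changes at 75 mg/kg/day, while both dimmer *Bcl2l1* probes had theirs at 50 mg/kg/day. Likewise *Marco* (2.19) weighs most in the mean of the Kupffer list, where the others changed by 0.03 to 0.16 at 75 mg/kg/day. The Kupffer list had mean log2 ratios of 2.78 to 3.27 in controls and 3.20 to 3.91 at 75 mg/kg/day, and its summed intensity was 6415 to 11502, 8240 to 17628, 5702 to 21959 and 5812 to 28714 in the 4 groups in order of dose. The marker counts are of present markers, which were 4 of 6 listed for hepatocytes, 3 of 5 for neutrophils and 4 of 5 for T cells. They were 3 of 4 for B cells and 3 of 4 for proliferating cells. The part of these cells in the members' values was not tested.

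Among the members themselves, relations across the 20 arrays were computed for 45 pairs on values centered within each slide. The strongest was between *Bax* and *Bcl2*, with Pearson's r of 0.72 (permutation p = 0.00238, adjusted p = 0.107) and Spearman's rho of 0.75 (permutation p = 0.00312, adjusted p = 0.140), both from 100000 permutations within slides. Without the 2 arrays farthest from the median of *Bax*, r was 0.68. After adjustment over the 45 pairs by the Benjamini-Hochberg method, 0 had an adjusted p under 0.05.

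Genes whose pattern over the 20 arrays was most like that of a member were taken from 12985 others by Pearson's r after slide means were removed, as a description with no test. For *Bax* these were *Cyba* (0.89), *Sesn2* (0.88) and *Ahnak* (0.86), and for *Bcl2l1* they were *Kyat1* (0.88), *Asic3* (0.87) and *Fam160a2* (0.86). For *Bcl2* they were *Snx20* (0.94), *P3h3* (0.93) and *Pcdhga9* (0.92). *Sesn2*, which is on the p53 list, changed by 0.14 at 75 mg/kg/day with an adjusted p of 0.760 by limma. The arrays share their slides and their reference RNA.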

How the data were processed

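The authors deposited, for each array, the median spot and local background intensity of the liver and reference channels, read by the scanner software and not normalized. Beside these were software-processed intensities and the authors' own log2 ratios, which had been LOWESS normalized array by array. Deposited marks told which spots were well above background, outlying or saturated (0 spots).

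Here the median intensities of 43379 gene spots per array were corrected by normexp (offset 50) and brought to log2 ratios by loess on each array, outlier spots carrying no weight, and spots of the same probe were averaged. Across probes, which are not independent replicates, r with the authors' ratios was 0.994 to 0.996. The presence limit was the 5% trimmed mean of 153 negative control spots plus 3 of their trimmed SDs, to be passed by the liver signal of 4 of the 5 arrays of some group. RefSeq accessions named 23374 probes. The study removed a sample that the sources do not name, and all 20 were kept. MAANOVA was not used here. R 4.3.3, limma 3.58.1, the R package data.table (version 1.17.8), Python 3.11.15 and matplotlib 3.10.9 were used, and the fit was tested on simulated data.

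The members and the linked lists were chosen with earlier results of these data known. From the linked lists the text names called genes, up to 5 genes per list whose highest dose and control arrays did not overlap, *Apaf1* and *Cdkn1a*. *Bmf*, *Bcl2l2*, *Casp9*, *Sesn2*, *Pecam1*, *Adgre1*, *Dcn* and *S100a9* were named outside this rule after their values were seen. Alternatives were the processed signals, the authors' ratios, the liver channel alone, other filters, slide as a block, fits of a single dose with the control, the mean over probes and each array left out in turn. Each array is 1 animal, and 0 arrays were identical in their values.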

Additional observations from a re-analysis of the deposited data

Results flagged for a closer look

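A sample far from the other 4 of its group was looked for in 40 sets of 5 arrays (10 members in 4 groups) by Dixon's ratio, which chance exceeds in about 1 of 20 sets, or 2 of 40. It was exceeded in 2. *Bcl2* in replicate 7 at 25 mg/kg/day had a log2 ratio of -0.51, against -1.03 to -0.94 in the other 4 arrays. *Bbc3* in control replicate 1 had 0.99, against -0.12 to 0.11 in the others.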

How the results depend on the processing

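The count of members called, 0 at each dose and in the trend, was 0 under every alternative run, and the lowest adjusted p of a member against control was 0.148 by limma (*Mcl1* at 75 mg/kg/day without replicate 19). Of 837 member values at the 3 doses under other settings, 781 kept their sign and 56 changed it, and none passed the threshold. At 75 mg/kg/day the median of the anti-apoptotic members was 0.137 (without control replicate 1) to 0.319 (without control replicate 2) with an array left out and 0.135 to 0.310 under the other settings, and that of the pro-apoptotic members -0.107 (without replicate 19) to -0.026 and -0.048 to -0.012. At 50 mg/kg/day the latter turned to -0.055 without replicate 12. Where a sign turned, the cause was not tested.

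With the scanner software's processed signals the log2 changes that turned were *Bcl2l11* at 25 (0.0064), *Bcl2* at 50 (0.024), and *Bak1* (-0.012), *Pmaip1* (0.13) and *Bad* (0.0051) at 75 mg/kg/day. With the authors' ratios they were *Bcl2l1* at 25 (0.011), *Bbc3* at 50 (0.00997) and *Bak1* at 75 mg/kg/day (-0.037). In the liver channel alone they were *Bax* (0.040) and *Pmaip1* (0.047) at 25, *Bcl2* (0.11), *Bak1* (-0.0068) and *Pmaip1* (0.070) at 50, and *Pmaip1* (0.12) at 75 mg/kg/day. With slide as a block they were *Bcl2l1* (0.074) and *Bcl2l11* (0.10) at 25, and *Bcl2* (-0.0088), *Bak1* (-0.0043) and *Bcl2l11* (0.14) at 75 mg/kg/day. The mean over probes turned *Bcl2l1* at 25 mg/kg/day (0.060).

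Leaving out 1 array in turn gave, at 25 mg/kg/day, ranges of -0.098 to 0.084 (*Bcl2l1*), -0.20 to 0.055 (*Bax*), -0.26 to 0.017 (*Bbc3*) and -0.19 to 0.046 (*Bcl2l11*). At 50 mg/kg/day they were -0.11 to 0.068 (*Bcl2*), -0.086 to 0.17 (*Bax*), -0.029 to 0.12 (*Bak1*), -0.19 to 0.19 (*Bbc3*) and -0.0077 to 0.16 (*Bid*). At 75 mg/kg/day they were -0.079 to 0.078 (*Bcl2*), -0.073 to 0.073 (*Bak1*), -0.15 to 0.17 (*Bbc3*) and -0.15 to 0.086 (*Bcl2l11*).

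The probes called over the whole array moved more than the members. Leaving out 1 array gave 0 to 2 at 25, 0 to 1 at 50, 25 (without replicate 20) to 72 (without replicate 19) at 75 mg/kg/day, 28 to 59 in the trend and 4 to 21 between 75 and 25 mg/kg/day. The count at 75 mg/kg/day was 62 with processed signals, 58 with slide as a block and 5 when only the control and this dose were fitted. At 50 mg/kg/day it was 4 with processed signals and 3 with slide as a block. The trend gave 69 probes in the liver channel alone, 95 with slide as a block and 28 among probes well above background on all arrays, a filter that left 7 between 75 and 25 mg/kg/day. *Cdkn1a* at 75 mg/kg/day missed the threshold in the liver channel alone (adjusted p = 0.0562 by limma). Each animal was in 1 dose group, so animals could not be paired between groups, and arrays were paired only through their slides. Dim probes (*Bad*, both further *Bcl2l1* probes) were read close to background, which limits what they can show.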
